A study of Nannochloropsis oceanica strain IMET1 with 15 samples.

Results

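The wild-type (WT) transcriptome of the microalga *Nannochloropsis oceanica* IMET1 was described on its own, from 3 of the 15 RNA-seq libraries of the series. The 3 members are the libraries labelled wild-type, strain IMET1, and were chosen by that label and not by any value. Each came from cells grown as a bubbled culture in high light and taken on day 7, and the study treats them as biological replicates. The other 12 libraries belong to lines in which a single gene, NO08G00280 or NO06G02500, was knocked out, and no value of theirs is used here. With a single group there is nothing to test against, so every value below is a description of these 3 libraries, and the spread between them is the only error that can be given. The values cover 10493 genes, of which 10333 lie on the 30 nuclear chromosomes, 125 in the chloroplast genome and 35 in the mitochondrial genome.

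*N. oceanica* is a unicellular marine alga that stores oil as triacylglycerol in lipid droplets and is kept in laboratories as a model for lipid production. Its plastid descends from a red alga taken up by another eukaryote, and plastid and mitochondrion each keep a small genome that encodes a minority of their proteins, while most photosynthetic and respiratory proteins, the light-harvesting antenna among them, are encoded in the nucleus. Levels are given as TMM-normalized TPM, each transcript as a share of its library, scaled by a factor per library, and are called TPM below. TPM is corrected for gene length, so levels of different genes can be set side by side, but it is a share of the RNA read in a culture and not a number of molecules per cell. A change in the mix of cell states and a change in RNA per cell cannot be told apart in such bulk values.

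The libraries were alike in the number of genes with signal. Between 91.2% and 91.3% of genes were listed above 0 in a library, and the depth, as the ratio of read coverage to FPKM, was 6.17 in WT replicate 1, 4.69 in replicate 2 and 5.45 in replicate 3. For the median gene a TPM of 1 stood for a mean coverage of 2.49, 1.89 and 2.23 reads per base in replicates 1, 2 and 3, and 250 to 261 genes of a library had a ratio of coverage to FPKM more than 5% below the median, down to 0.50 of it. Read counts are not part of the values used here, so no counting error can be given for a single value. Both genes knocked out in the other lines, a single gene per line, were present. NO08G00280 on chromosome 8 had 6.70, 8.36 and 9.57 TPM in replicates 1, 2 and 3, and NO06G02500 on chromosome 6 had 58.8, 55.3 and 55.7.

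Most nuclear genes were expressed at moderate levels. The median nuclear gene stood at 41.9 TPM, and 5643 of 10333 nuclear genes (54.6%) had a mean between 10 and 100. A further 2402 genes had a mean between 100 and 1000, 106 exceeded 1000, 1119 lay between 1 and 10, and 1063 (10.3%) stood at 1 or lower. Of the latter, 745 (7.21% of nuclear genes) were listed at 0 in all 3 libraries. The genes between 100 and 1000 made up 55.1% of all values and the 106 genes above 1000 made up 20.1%, so that 2508 nuclear genes, 24.3% of the nuclear total, carried most of the measured RNA. The 5246 genes with the lowest means together took 7.67%, 7.02% and 7.52% of the values in replicates 1, 2 and 3. Chloroplast genes had a median of 1.18 TPM and mitochondrial genes one of 1.87.

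**Figure D1:**
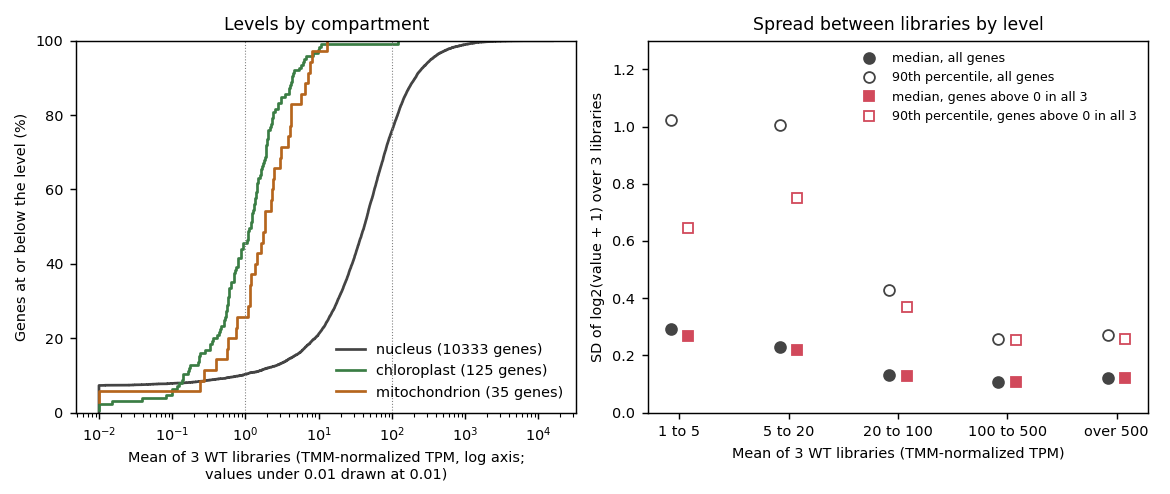
Left: share of the genes of each genome (y axis, percent) whose mean over the 3 WT libraries is at or below the TPM on the x axis (log axis). Right: median and 90th percentile of the SD of log2(TPM + 1) over the 3 WT libraries (y axis) in 5 bins of the mean (x axis). The nuclear curve passes its midpoint at 41.9 TPM and the organelle curves at 1.18 and 1.87, and the median SD falls from 0.29 for means of 1 to 5 to 0.11 for means of 100 to 500.

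The most abundant transcript came from NO04G03470, a gene of 219 bases on chromosome 4 (947878 to 948096 in the IMET1v2 genome). It had 15883, 17507 and 15205 TPM in WT replicates 1, 2 and 3, which was 1.546%, 1.685% and 1.504% of all values. It stood far above the next gene, NO24G02220 on chromosome 24 (592340 to 594397), with 4488, 7690.1 and 5792 TPM. NO16G02610 on chromosome 16 came next with 4236, 5896 and 4971 TPM. In both of these genes replicate 2 was the highest and replicate 1 the lowest. None of these 3 genes is given a name or a role in the sources used here.

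The 10 genes with the highest means took 5.15%, 5.85% and 5.32% of the values in replicates 1, 2 and 3, the top 100 took 19.56%, 19.98% and 19.02%, and the top 1000 took 54.2%, 54.9% and 53.8%. The order at the top was largely shared. Of the 25 most abundant genes of each library 23 were common to all 3 libraries, as were 8 of the top 10 and 80 of the top 100. The 25 genes with the highest means came from 18 chromosomes, had spans of 219 to 2963 bases and means of 2178 TPM or more, and took 9.35% of the values. Replicate 2 was the highest library in 17 of the 25, replicate 1 in 6 and replicate 3 in 2. The SD of log2(TPM + 1) over the libraries ranged from 0.03 in NO03G04040, at 4030.1, 4222 and 4122 TPM, to 0.46 in NO09G00450. NO24G02220 and NO09G00450 were the 2 genes among the 25 in which the highest library exceeded the lowest by more than 1.5-fold.

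NO09G00450 encodes a light-harvesting protein of photosystem I, one of the pigment-binding antenna proteins that pass light energy to the reaction centre and is the only one of the top 25 with a description in the sources used here. It had 4124 TPM in WT replicate 1, 2544 in replicate 2 and 2247 in replicate 3, so replicate 1 stood apart from the other two. It shares its 5' part with NO09G00440 on the opposite strand, which had 1579, 1406 and 1027 TPM, in the same order. The library kit does not mark the strand, so reads from the shared stretch cannot be assigned to one of these genes. NO14G02950 (4379, 5068 and 4160.5 TPM) lies inside NO14G02940, a gene of the same strand with 24.1, 28.4 and 27.0 TPM. In all, 4 of the 25 genes overlap another gene.

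Some of the most abundant genes were neighbours. NO10G02300 and NO10G02310 on chromosome 10 are each 828 bases long and have their starts facing each other across 850 bases. NO10G02310 had 4071, 4522 and 5100.2 TPM and NO10G02300 had 3064, 3164 and 3610.6 TPM, and both were highest in replicate 3. NO22G01440 and NO22G01450 on chromosome 22 lie 8 bases apart on the same strand. They had nearly the same level, 3659.6, 2799 and 3079 TPM and 3581, 2755 and 2989 TPM, and both were highest in replicate 1. NO22G01460, the next gene of that strand, had 1301, 1385 and 1372 TPM. On chromosome 20 the run NO20G02130, NO20G02140 and NO20G02150 also exceeded 1000 TPM in every library. Among the 106 nuclear genes above 1000 there were 10 such adjacent pairs, made of 17 genes, with 7 of the pairs on the same strand. The pairs include the repeat copies NO06G00260, NO06G00270 and NO06G00280 and the overlapping genes NO09G00440 and NO09G00450. How reads were assigned within these is uncertain. These 106 genes lay on 26 chromosomes, with 10 on chromosome 2, and had a median span of 1617 bases against 2206 for all nuclear genes.

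**Figure D2:**
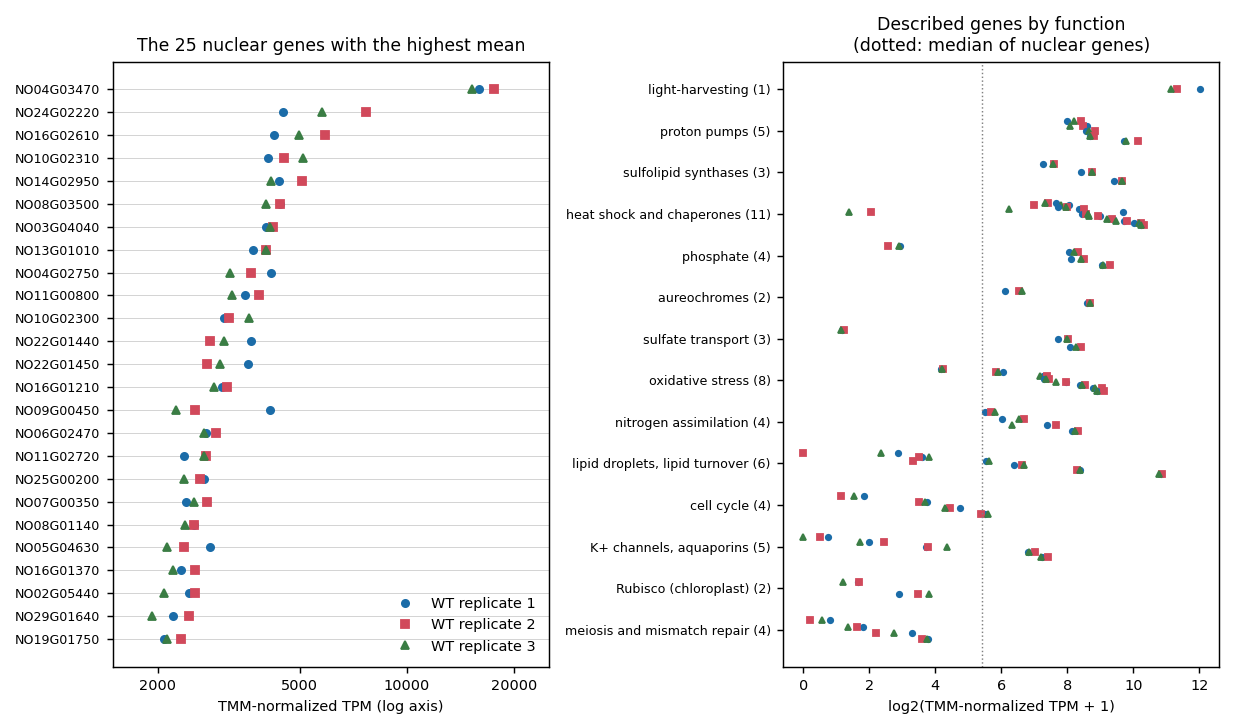
Left: TPM (x axis, log scale) of the 25 genes with the highest mean, 1 row per gene and 1 symbol per WT library. Right: log2(TPM + 1) (x axis) of the 62 genes with a described function, 1 row per list with its number of genes, in which the dotted line marks the nuclear median. NO04G03470 has a mean of 16198 TPM and lies apart from the other genes, all 11 heat shock and chaperone genes have means above 100 TPM (NO05G02550 through replicate 1 alone), and the 4 meiosis genes lie left of the line.

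Functions are described for 62 genes in 14 lists, 60 of them nuclear. The descriptions read as names of *Arabidopsis* matches and come mostly from the genes the study found to differ in its other lines, so these genes are not a random sample of the transcriptome. Of the 60 nuclear genes 44 (73.3%) were above the nuclear median and 38 (63.3%) had a mean above 100 TPM, beside 24.3% of all nuclear genes. By their medians the 5 proton pump genes (416 TPM), the 3 sulfolipid synthase genes (401) and the 11 heat shock and chaperone genes (374) were the highest lists of more than 1 gene, and the 2 Rubisco genes of the chloroplast (5.90) and the 4 meiosis and mismatch repair genes (4.05) the lowest. The Rubisco list holds only chloroplast genes, and the median of all chloroplast genes was 1.18 TPM, so it is not ranked like for like with the nuclear lists. The light-harvesting list holds only NO09G00450, since the other genes of that list were left out.

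All 11 heat shock and chaperone genes, which help proteins fold or take aggregates apart, had means above 100 TPM, though NO05G02550 reached this through replicate 1 alone. The highest was NO02G03090, described as heat shock protein 91, with 1208, 1271 and 1206 TPM in WT replicates 1, 2 and 3 (1228 ± 37.2, SD, n = 3). NO06G02710, a putative stress-inducible protein, had 1131 ± 90.2 TPM (SD, n = 3), and NO16G01260, a match of ClpB3, had 819.8 ± 97.4 (SD, n = 3). The lowest mean was that of NO03G01460, an HSP90.1 gene, with 177 ± 21.4 TPM (SD, n = 3). The co-chaperone genes, chaperonin 10 (NO05G01850, 639 ± 38.2) and GrpE (NO19G01420, 466 ± 58.4), differed less between libraries than from each other (SD, n = 3 each).

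Of the 11, 3 differed more than 2-fold between replicates. The other HSP90.1 gene, NO05G02550 on chromosome 5 (671778 to 674692), had 833 TPM in replicate 1, 3.18 in replicate 2 and 1.59 in replicate 3, a 524-fold range. Its neighbours on the same strand were NO05G02540, which had 77.7, 78.5 and 80.2 TPM, and NO05G02560, which begins directly after it and had 136, 183 and 172 TPM. Neither neighbour showed such a jump in replicate 1, though NO05G02560 was lowest there. How reads were divided between the abutting gene models was not tested. NO12G00410, a DNAJ-type co-chaperone, had 325, 365 and 73.9 TPM and was low in replicate 3. NO20G02120, a match of the HSP101 chaperone, had 263, 127 and 225 TPM and was low in replicate 2. A mean over these libraries says little for these 3 genes.

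Genes of membrane energization and of nutrient uptake were mostly above 100 TPM. All 5 proton pump genes passed that level, from NO17G00440 at 295 ± 42.5 TPM to NO12G00390, an H+-ATPase that moves protons across a membrane at the cost of ATP, at 945 ± 152 (SD, n = 3 each). NO12G00380, a further H+-ATPase gene, precedes it on the same strand and had 338 ± 62.6 TPM (SD, n = 3). The subunits G2 (NO04G03350) and D (NO15G01190) of the vacuolar proton pump had 423 ± 24.4 and 416 ± 40.1 TPM (SD, n = 3 each), which do not differ beyond their spread. Of the phosphate genes, the transporter genes NO24G00190 and NO03G01310 had 563 ± 50.9 and 293 ± 27.9 TPM and the SPX-domain gene NO06G00660, of a family of phosphate sensors, had 328 ± 43.9 (SD, n = 3 each). NO04G04920, a match of a phosphate deficiency response gene, had only 6.06 ± 0.94 TPM (SD, n = 3). The sulfate transporter genes NO11G01800 and NO10G00770 had 306 ± 37.4 and 241 ± 26.5 TPM, beside 1.28 ± 0.058 for the sulfite exporter match NO09G03220 (SD, n = 3 each).

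The nitrate pathway showed a cluster of the transporter and the reductase on chromosome 14. NO14G02460, which encodes nitrate reductase, the enzyme that turns nitrate into nitrite, had 44.8, 50.8 and 55.3 TPM in WT replicates 1, 2 and 3 (50.3 ± 5.26, SD, n = 3). The high-affinity nitrate transporter gene NO14G02450 starts on the other strand 33 bases away and had 166, 203 and 79.2 TPM. It abuts NO14G02440 on its own strand, which had 96.3, 0 and 198 TPM. Where the transporter gene was lowest, in replicate 3, the gene behind it was highest, and where the transporter gene was highest, in replicate 2, the gene behind it was listed at 0. Nitrite reductase (NO26G00710) had 85.8 ± 19.7 TPM and CNX3 (NO24G02300), of the synthesis of the molybdenum cofactor that nitrate reductase needs, had 300.6 ± 18.5 (SD, n = 3 each).

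In lipid metabolism, the gene of the lipid droplet surface protein, which coats the oil bodies of *Nannochloropsis*, stood out. NO11G02550 had 1846, 1854 and 1757 TPM in WT replicates 1, 2 and 3 and was the 33rd most abundant of all genes, with an SD of log2(TPM + 1) of 0.04. The triglyceride lipase gene NO18G01550 had 328 ± 13.4 TPM and lipase 1 (NO20G00510) had 94.7 ± 10.1 (SD, n = 3 each). The lipase gene NO05G00120 was listed at 6.28, 0 and 4.13 TPM, and NO16G00440, of the GNS1/SUR4 family of fatty acid elongases, had 11.5 ± 1.46 (SD, n = 3). NO07G01500, a diacylglycerol acyltransferase gene, whose product adds the last acyl chain of triacylglycerol, had 45.0 and 48.6 TPM in replicates 1 and 3 but 9.02 in replicate 2. The whole of NO07G01510 lies inside it on the other strand and was listed at 0 in all 3 libraries. The 3 genes matching SQD2, which makes the sulfolipid of photosynthetic membranes, had 766 ± 71.1 (NO07G01720), 401 ± 53.0 (NO15G02830) and 177 ± 21.3 TPM (NO05G03760), each apart from the next by more than the SDs (SD, n = 3 each).

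Of the 8 oxidative stress genes 6 had means above 100 TPM. Thioredoxin F2 (NO02G01640, 502 ± 46.0 TPM) and the alternative oxidase gene NO02G00290 (476 ± 44.3), whose product passes electrons to oxygen in mitochondria, were the highest and did not differ beyond their spread (SD, n = 3 each). The stromal ascorbate peroxidase gene NO10G02430, which clears hydrogen peroxide, followed with 350.1 ± 17.5 TPM (SD, n = 3), and the glutathione S-transferase gene NO08G00510 was the lowest with 17.5 ± 0.44 (SD, n = 3). Of the aureochrome genes, whose products are blue-light receptors that bind DNA, NO08G01840 had 402 ± 12.9 TPM and NO01G04880 had 86.4 ± 15.5 (SD, n = 3 each).

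By list medians, genes of meiosis and mismatch repair (4.05 TPM), of potassium channels and aquaporins (14.7) and of the cell cycle (16.7) were at the low end. None of the 4 meiosis and mismatch repair genes reached the nuclear median. The match of SPO11, which cuts DNA to start meiotic recombination, was the highest of them (NO10G02420, 12.2 ± 0.88 TPM, SD, n = 3), and the Mnd1 match NO06G00380 had 0.76, 0.15 and 0.47 TPM. Of the 4 cell cycle genes 1 passed the nuclear median, the Aurora kinase gene NO11G02310 with 44.4 ± 3.24 TPM (SD, n = 3), and the mitotic cyclin gene NO13G01690 was the lowest with 1.91 ± 0.71 (SD, n = 3). The potassium channel genes NO10G02520 and NO10G02530 lie 74 bases apart on one strand and had 155 ± 12.5 and 118 ± 9.41 TPM (SD, n = 3 each). The aquaporin gene NO13G03110 was listed at 0.66, 0.43 and 0 TPM, the lowest of its list.

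RNA of the organelle genomes made up a very small part of the values. Their 160 genes took 0.0330%, 0.0476% and 0.0472% of the values in WT replicates 1, 2 and 3, of which the chloroplast held 0.0246%, 0.0369% and 0.0377%. Only psbA, the chloroplast gene of the D1 protein of photosystem II, exceeded 100 TPM on average, with 79.9, 138 and 147 TPM in replicates 1, 2 and 3, and it alone was 31.7%, 35.9% and 38.5% of the chloroplast sum. How RNA was selected before sequencing is not given in the sources used here, and its part in these low shares was not tested. No ribosomal or transfer RNA gene of the organelles is among the names in the values used here. Over all 125 chloroplast genes the median coverage was 2.18, 2.41 and 2.45 reads per base, so these levels rest on few reads.

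Within the chloroplast, the 19 photosystem II genes summed to 119, 194 and 208 TPM in replicates 1, 2 and 3 and were the first group in every library. After psbA came psbD (10.7 ± 2.60 TPM, SD, n = 3), the D2 protein gene, and dnaK (10.2 ± 3.57), a chaperone gene, then rbcL (9.88 ± 3.36), the large subunit of Rubisco, which fixes carbon dioxide, and psbB (8.44 ± 4.14), an inner antenna protein (SD, n = 3 each). psbC, the other inner antenna gene, overlaps psbD on the same strand and had 6.76 ± 2.43 TPM (SD, n = 3). The small subunit gene rbcS lies 208 bases behind rbcL and had 1.92 ± 0.52 (SD, n = 3). From psbD to psbB the SDs are wider than the steps between neighbours in the order, so the order of these 4 genes was not resolved.

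The median photosystem II gene had 1.87 TPM, so the lead of this group rested on psbA. The 7 ATP synthase genes had a median of 4.24 TPM, from atpE at 1.33 to atpH at 5.44, and the 9 photosystem I genes had a median of 1.81, from psaE, listed at 0 in all 3 libraries, to psaA at 6.26. The 8 genes of cytochrome b6f and electron carriers had a median of 1.62 TPM, the 4 chlorophyll synthesis genes one of 1.09, from chlI at 0.55 to chlL at 2.00, and the 18 genes of the small ribosomal subunit one of 1.34. The 25 genes of the large ribosomal subunit had a median of 0.80, with rpl3 highest at 4.38. The 4 genes of the plastid RNA polymerase were the lowest group in every library, with sums of 0.90, 2.51 and 2.31 TPM, and rpoC2 was listed at 0, 0.25 and 0. The order of the 10 chloroplast groups was the same in all 3 libraries for 5 of them.

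WT replicate 1 was low for chloroplast genes. Of 68 chloroplast genes with a mean of at least 1 TPM, 42 (61.8%) had their lowest value in replicate 1, beside 36.0% of nuclear genes and 8 of 26 mitochondrial genes (30.8%). The median ratio of replicate 1 to the mean of the other libraries was 0.64 for chloroplast genes, 0.94 for mitochondrial genes and 1.00 for nuclear genes. The low values of replicate 1 included abundant chloroplast genes, with psbB at 3.94, 12.1 and 9.33 TPM, psaA at 3.55, 7.83 and 7.40 and rbcL at 6.40, 10.1 and 13.1 in replicates 1, 2 and 3. The antenna gene NO09G00450 in the nucleus went the other way, with its highest value in replicate 1. It is the only light-harvesting gene described here, and it overlaps NO09G00440, which was also highest in replicate 1.

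In the mitochondrion, atp6, a subunit gene of ATP synthase, was the highest gene with 9.01, 13.9 and 15.6 TPM in replicates 1, 2 and 3. The cytochrome oxidase genes cox2 and cox3 followed with 8.10 ± 1.00 and 7.60 ± 2.39 TPM and cob, of the cytochrome bc1 complex, had 5.75 ± 1.03 (SD, n = 3 each), which do not differ beyond their spread except cox2 from cob. The first subunit gene, cox1, was listed at 0, 21.1 and 0 TPM. It begins at base 1 of the mitochondrial record, as psaA does in the chloroplast record. Without cox1 the mitochondrial sum was 86.3, 90.2 and 96.0 TPM. Of the 10 complex I genes nad7 was the highest (4.01 ± 1.13 TPM, SD, n = 3) and nad6 was listed at 0, 0.27 and 0.46, and of the 11 small ribosomal subunit genes rps10 and rps19 were listed at 0 in all 3 libraries. The order of the group sums changed between libraries. The 4 genes of complexes III and IV summed to 20.4, 40.4 and 24.6 TPM in replicates 1, 2 and 3, of which cox1 alone gave 21.1 in replicate 2, and the 4 ATP synthase genes summed to 18.5, 20.4 and 27.3.

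Some organelle genes are annotated in more than 1 copy, with unlike levels. The gene of the electron carrier cytochrome c6, petJ, was listed at 0.004, 0 and 0 TPM, while the copy named petJ-2, of the same span of 366 bases, had 1.55, 4.73 and 6.68. The neighbouring psbV copy of 189 bases had 0.29, 0.49 and 0.62 TPM and psbV-2, of 480 bases, had 4.11, 7.45 and 5.45. How reads that fit several places were assigned is not given in the sources used here, so the split between such copies is uncertain.

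**Figure D3:**
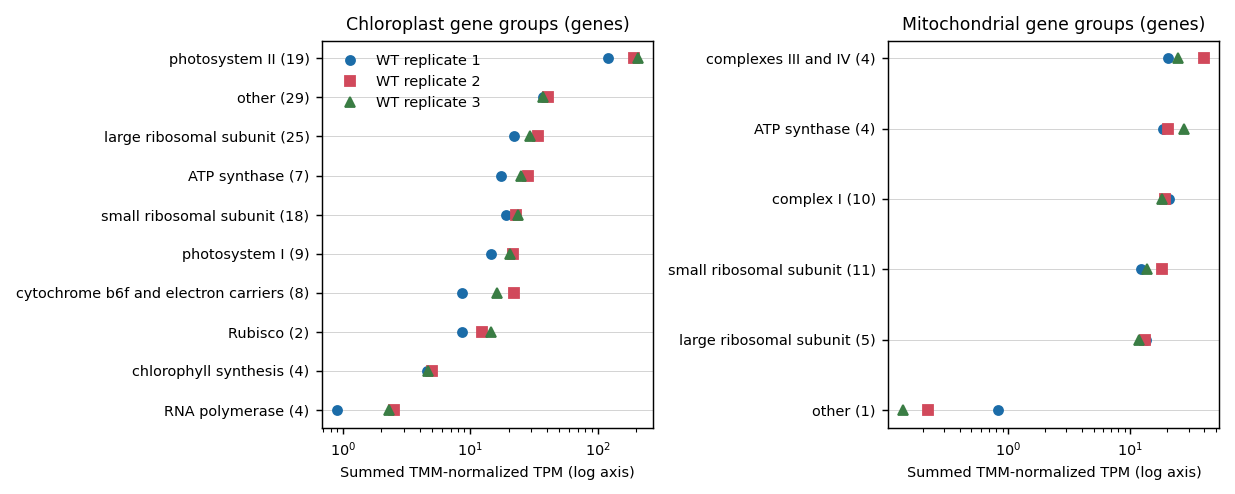
Summed TPM (x axis, log scale) of the gene groups of the chloroplast (left) and the mitochondrion (right) in the 3 WT libraries, with the number of genes of each group in parentheses. Photosystem II leads the chloroplast with 119 to 208 TPM and the RNA polymerase is last with 0.90 to 2.51, and in most chloroplast groups the symbol of replicate 1 lies to the left of the other two.

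Genes without signal were mainly genes placed inside other genes. In the nuclear genome 2442 of 10333 genes (23.6%) overlap another gene, and their median level was 26.2 TPM against 47.1 for genes that overlap none. Of the 645 genes that lie wholly inside another gene 528 (81.9%) were listed at 0 in all 3 libraries, which is 70.9% of all 745 such genes. Genes that overlap another without lying inside it had a median of 43.2 TPM, and 1.447% of them were at 0. The gene pairs show the same. Of 665 pairs in which the shared stretch covers at least 90% of the shorter gene 533 had a member at 0, and in 532 of these it was the shorter gene. Of the 669 pairs with less cover 16 had one. Only 11 of the 1334 overlapping pairs are on the same strand. Since the libraries keep no strand, a 0 in an enclosed gene does not show that it is not transcribed.

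That left 191 nuclear genes that overlap no other gene and were listed at 0 in all 3 libraries, 2.42% of the 7891 genes without overlap. They had a median span of 1001 bases. NO16G01110, described as a LEA protein, of a family known from drying seeds of plants, was among them. Of these genes 45 lay in runs of at least 5 neighbouring genes at 1 TPM or lower. There were 8 such runs, with 69 genes.

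The longest run of low genes closed chromosome 6. The last 18 genes of this chromosome, NO06G04580 to NO06G04750 (1309712 to 1393462), all had means of 1 TPM or lower and 17 of them were listed at 0 in all 3 libraries. The exception, NO06G04710, had 1.02, 0.46 and 0.27 TPM. The gene before the run, NO06G04570, a match of transposase-like hAT and BED zinc-finger proteins, had 1.54 TPM in replicate 1 and 53.3 and 57.4 in replicates 2 and 3. On chromosome 3 a run of 10 genes, NO03G00740 to NO03G00830 (236031 to 280690), was at 0 throughout, between NO03G00730 with 12.1, 14.4 and 9.18 TPM and NO03G00840 with 58.2, 57.5 and 56.4. Chromosomes 10 and 30 each held 2 of the 8 runs, of 7 and 5 genes and of 7 and 6 genes. Most other low genes stood alone, with 704 of 838 runs made of a single gene.

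A run on chromosome 4 is a tandem repeat. From NO04G02270 to NO04G02490 (646511 to 667956) 23 genes follow each other on the plus strand, alternately 612 and 498 bases long, with a period of 1894 bases. None of them had a mean above 1.73 TPM, and 12 were listed at 0 in all 3 libraries. There were 6 such arrays of at least 3 evenly spaced copies, with spans and spacing equal to within 3 bases. In these arrays 28 of 42 genes (66.7%) were at 1 TPM or lower, beside 10.3% of all nuclear genes. The chromosome 4 array gave 17 of the 28, and copies of the same array are not independent. On chromosome 6, 6 of the 7 copies from NO06G03100 to NO06G03160 were at 0 and NO06G03140 had 4.65, 3.94 and 2.24 TPM. On chromosome 21, NO21G02240 had 222, 114 and 142 TPM and NO21G02250 had 209, 109 and 138, but the third copy, NO21G02260, was at 0 in all 3 libraries.

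One array stood among the most abundant genes. NO06G00260, NO06G00270 and NO06G00280 on chromosome 6 (113421 to 121955) are each 633 bases long, and their starts are 3951 bases apart. They had 1717, 1719 and 1720.4 TPM in WT replicate 1, 1024, 1024 and 1023 in replicate 2 and 1248, 1249.6 and 1251 in replicate 3. Within a library their levels were nearly equal, far closer than between libraries. At the start of chromosome 1 a repeated stretch gave exactly equal values in pairs of genes of equal span, as in NO01G00060 and NO01G00200, each with 47.0, 40.5 and 39.6 TPM, and NO01G00050 and NO01G00190, each with 19.8, 18.3 and 21.6. In all, 16 genes with a mean of at least 1 TPM had the same 3 values as another gene. How reads were assigned between such copies is not given in the sources used here, so the levels of single copies are uncertain.

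The 3 libraries resembled each other closely for most genes. Spearman's rho across all 10493 genes was 0.9502 between WT replicates 1 and 2, 0.9508 between 1 and 3 and 0.9586 between 2 and 3, as a description across genes, which are not independent and share the annotation and library preparation. The median SD of log2(TPM + 1) was 0.14 over the 9364 genes with a mean of at least 1. It was 0.29 for genes with means of 1 to 5, 0.23 from 5 to 20, 0.13 from 20 to 100, 0.11 from 100 to 500 and 0.12 above 500. Of 8155 genes with a mean of at least 10, 4193 (51.4%) stayed within 1.2-fold and 683 (8.38%) differed by more than 2-fold between their highest and lowest library. A value more than 2-fold below both others occurred in 128, 139 and 120 of these genes for replicates 1, 2 and 3, and one more than 2-fold above both others in 86, 53 and 66. Replicate 1 was somewhat farther from the others than these were from each other, with median absolute log2 differences of 0.18 to replicate 2 and 0.17 to replicate 3, beside 0.13 between replicates 2 and 3. A range over 2-fold was found in 203 of 1585 overlapping genes (12.8%) and in 480 of 6570 others (7.31%).

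The steadiest genes above 100 TPM were NO07G00740, with 103.0, 103.1 and 103.1 TPM, and NO27G00480, with 250.4, 250.3 and 250.7. NO02G03000 (181.7, 182.0 and 181.2 TPM) and NO01G05010 (166.1, 166.9 and 167.3) came next. In each of the 10 steadiest the highest library was within 1.011-fold of the lowest. Such genes are the tail of 2509 genes, and no function is described for them in the sources used here.

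At the other end were genes that were abundant in some libraries and listed at 0 in others. A listed 0 is not read as absence of expression here, since genes that every cell uses, such as cox1 of the mitochondrion, were listed at 0 as well. NO02G02140 on chromosome 2 (604445 to 608216) was listed at 0, 1078 and 979 TPM in WT replicates 1, 2 and 3, and NO02G05480 (1459969 to 1462380) at 927, 0 and 803. NO06G00590 on chromosome 6 was listed at 549, 0 and 0 and NO04G03440 on chromosome 4 at 0, 358 and 319. Each of these 4 genes overlaps another gene. The other genes with the largest spread were NO05G02550, the HSP90.1 gene above, NO12G03980 (0, 0 and 247 TPM), NO15G01070 (214, 203 and 0), NO22G01060 (266, 143 and 0), NO11G01510 (197, 0 and 0) and NO14G01710 (0, 202 and 184). None of these, apart from the HSP90.1 gene, has a described function here. NO09G03960 (257, 66.1 and 0 TPM) was among the 5 highest of the genes at 0 in a single library.

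There were 131 genes listed at 0 in at least 1 library and at 20 TPM or more in another, 130 of them nuclear and the last cox1 of the mitochondrion. Of these 92 were at 0 in 1 library and 39 in 2, and 37 reached 100 TPM. The zeros were spread over the libraries, with 55 in replicate 1, 59 in replicate 2 and 56 in replicate 3. Of the 130 nuclear genes 81 (62.3%) had a neighbour on the same strand within 100 bases, beside 1498 of 8019 (18.7%) nuclear genes with a mean of at least 10 and no 0. Within 200 bases the shares were 78.5% and 25.7%, and genes that directly abut such a neighbour made up 21.5% and 4.76%.

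The level of the close neighbour often differed between libraries too. In 44 of the 81 (54.3%) the neighbour differed by more than 1.5-fold between libraries, beside 435 of 1498 (29.0%) for the other genes. The neighbour was more than 1.5-fold higher in libraries in which the gene was at 0 in 27 cases, lower in 8 and within that range in 46. Some neighbours are themselves among the 131 genes, so a pair such as NO15G02120 and NO15G02130 is counted from both sides. Such neighbours differ more than 1.5-fold between libraries by how the 131 were chosen, and they are part of the 44. NO02G02130, which ends 109 bases before NO02G02140, had 743, 5.21 and 6.65 TPM where NO02G02140 had 0, 1078 and 979. On chromosome 5, NO05G03660 (0, 198 and 186 TPM) and NO05G03670 (0, 68.2 and 71.6) were listed at 0 in the only library in which NO05G03680 (136, 0 and 0) was above 0. NO15G02120 (0, 108 and 102 TPM) and NO15G02130 (76.8, 0 and 0) replaced each other in the same way.

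NO06G00580, 14 bases before NO06G00590, had 106, 251 and 235 TPM where the latter had 549, 0 and 0, and NO14G01700 (89.8, 1.54 and 91.8) abuts NO14G01710 (0, 202 and 184). NO22G01290 (119, 123 and 0 TPM) and NO22G01300 (102, 0 and 109.8) were both above 100 TPM in replicate 1 and each listed at 0 in another library. How reads were divided between neighbouring gene models was not tested, so the level of each gene of such a pair is uncertain.

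**Figure D4:**
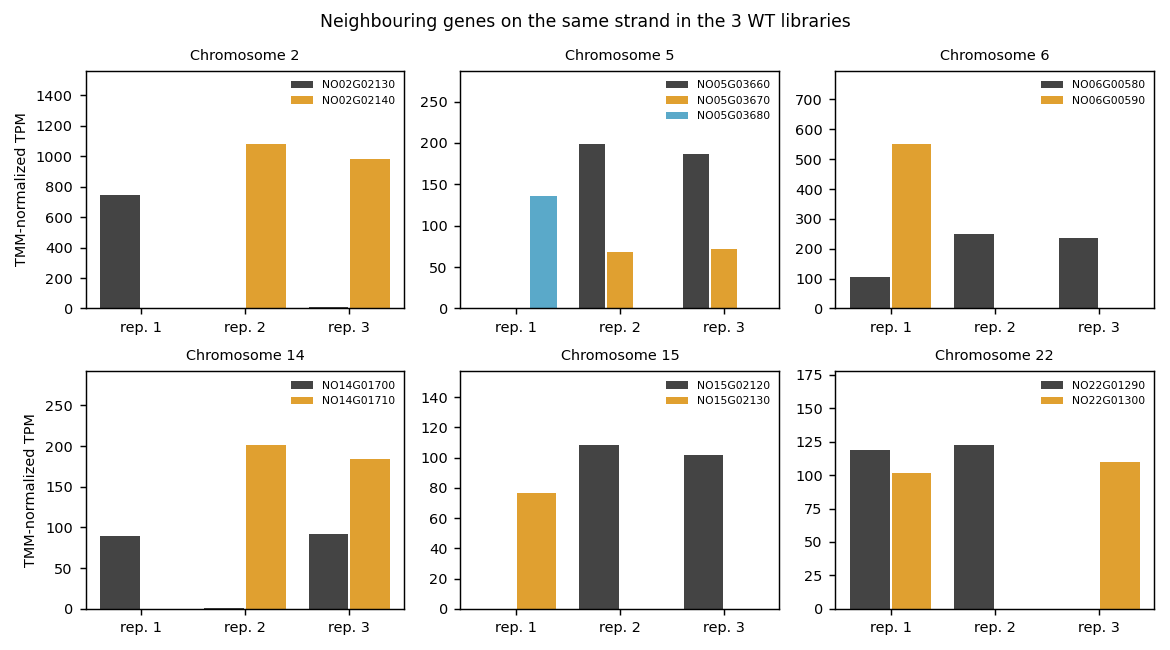
TPM (y axis, from 0) of 6 sets of neighbouring genes on the same strand in the 3 WT libraries (x axis), 1 bar per gene and library. In each of the 6 sets a gene is listed at 0 in a library in which its neighbour is present, as NO02G02140 is at 0 in replicate 1 where NO02G02130 has 743 TPM.

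Chromosomes differed in their typical level. The median gene of chromosome 5 had 55.2 TPM (51.9, 56.0 and 56.6 in WT replicates 1, 2 and 3) and that of chromosome 2 had 54.2 (53.8, 54.4 and 53.0), and these do not differ beyond the spread. Chromosome 30 was the lowest with 13.9 TPM (13.9, 11.6 and 12.5), and 24.6% of its 134 genes were at 1 TPM or lower. Chromosomes 23, 28 and 27 followed with 24.7, 26.1 and 27.1 TPM. In the order of the 30 chromosomes 18 of 29 steps between neighbours were within the spread over libraries. Chromosomes with more genes had higher medians, with a Spearman's rho of 0.81 over the 30 chromosomes as a description, since all share the same 3 libraries, and 0.71 when the first and last 20 genes of each were left out.

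Genes near chromosome ends were low. The first and last 20 genes of the chromosomes, 1200 in all, had a median of 17.4 TPM (17.3, 16.7 and 17.3 in the libraries) against 45.7 (45.8, 44.7 and 45.6) for the 9133 others. The ends were lower on 29 of 30 chromosomes, though on chromosome 19 they were nearly equal (35.4 against 35.9 TPM inside). On chromosome 23 the ends were higher (28.9 against 22.8 TPM). The ratio of inner to end genes was highest on chromosome 9, with 2.94 TPM at the ends and 47.6 inside, followed by chromosome 6 with 4.22 and 41.1 and chromosome 30 with 2.45 and 21.7. The level was flat over the 20 outermost genes, with 17.5 TPM in the first 5, 18.3 in the next 5 and 17.0 in the next 10. It was 25.8 TPM in the 30 genes after these, 43.5 in the 50 genes that follow and 57.0 more than 100 genes from the end. Overlap with other genes was equally frequent at the ends and inside (23.1% and 23.7%). The ends were not devoid of abundant genes, since 150 of the 1200 (12.5%) exceeded 100 TPM and 11 exceeded 1000.

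**Figure D5:**
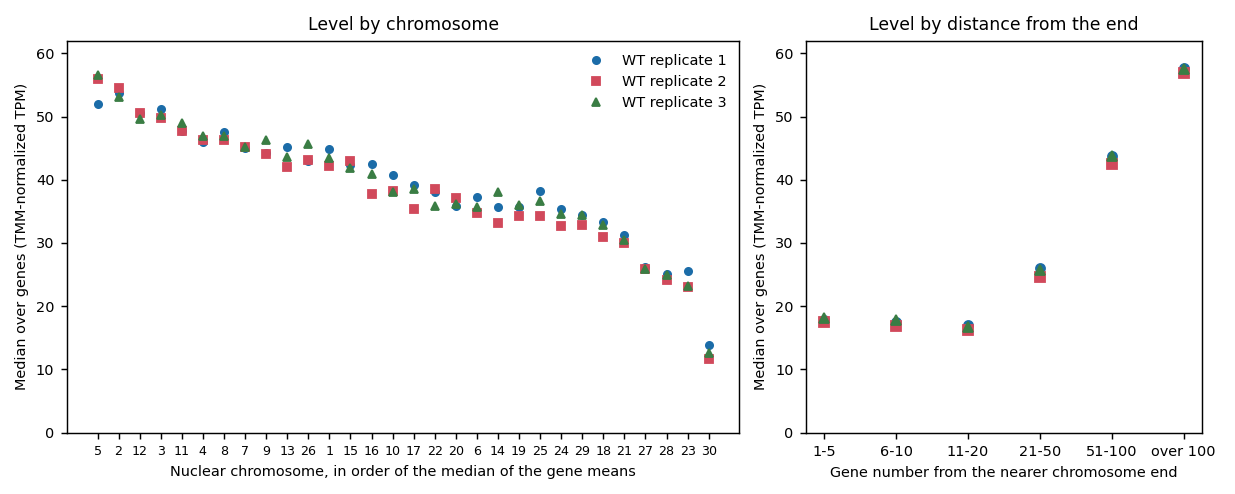
Left: median TPM (y axis) of the genes of each nuclear chromosome (x axis, ordered by median) in the 3 WT libraries. Right: median TPM by rank of a gene from the nearer chromosome end (x axis). Chromosomes 5 and 2 lead with medians near 55 TPM, chromosome 30 is last with 11.6 to 13.9, and the median rises from 17.5 in the outermost genes to 57.0 in the interior in all 3 libraries alike.

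Neighbouring genes were weakly alike in level. Spearman's rho of the mean TPM across the 10303 pairs of adjacent nuclear genes was 0.19, as a description, since pairs share genes. It was 0.26 for neighbours on the same strand, 0.25 for those with facing starts and no overlap and 0.17 for those with facing ends and no overlap. For genes 2, 5 and 20 apart the rho was 0.12, 0.10 and 0.07, so part of the likeness reached beyond direct neighbours. Overlapping neighbours on opposite strands went the other way, with -0.16 for facing starts and -0.14 for facing ends, while the 7 overlapping pairs on the same strand had 0.75. The stretch of 20 genes with the highest median was NO01G04510 to NO01G04700 on chromosome 1 (1192158 to 1243181), with 185 TPM (182, 189 and 184 in the libraries) and 13 genes above 100 but none above 1000. The median stretch of 20 genes had 45.9 TPM, and stretches on chromosomes 3, 6 and 10 had a median of 0.

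Gene length showed little relation to level. Spearman's rho between the span of a gene and its mean TPM was 0.05 across the 10333 nuclear genes and changed sign in subsets, to -0.10 among genes with a mean of at least 1 and to -0.044 among genes that overlap no other. Among 5 classes of span of nearly equal size the shortest genes were the most uneven. Of the 2067 genes of up to 1203 bases 23.7% were at 1 TPM or lower and 1.94% above 1000, beside 2.76% and 0.34% in the class with the longest spans. Genes at 1 TPM or lower had a median span of 1301 bases against 2328 for the others.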

How the data were processed

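Values of the 3 WT libraries were taken from the deposited matrix of 15 libraries and 10493 genes, in which the authors scaled TPM by TMM. Per the paper's methods the authors used the nf-core/rnaseq pipeline with STAR, and Trinity's matrix step; the tables that the authors deposited for each library hold the TPM, FPKM and coverage (signal) of StringTie. Each matrix column equalled its StringTie TPM times a factor (1.03, 1.04 and 1.01). Versions and the handling of reads that fit several places are not given in the sources used here. All 15 matrix columns matched a library, and 12 were not used. Coordinates are those of the deposited tables (IMET1v2). Names of the 160 organelle genes were matched to a RefSeq table, used for names only.

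Means, medians and the SD of log2(value + 1) were computed in Python 3.11.15 with numpy 2.4.6 and pandas 2.3.3, and plotted with matplotlib 3.10.9; the steps were tested on simulated data. Low expression was a mean of 1 or lower and high expression one above 100, the filter for SDs was a mean of 1 and that for fold ranges a mean of 10. No test was run, since a single group has nothing to compare with. Depth is known only as coverage per FPKM (4.69 to 6.17). Named genes were the 25 nuclear and 15 organelle genes with the highest means, the extremes of each list or group, the 10 largest and smallest SDs, the 5 highest genes at 0 in 1 library, the longest low runs and both knocked-out genes; neighbours of these, the repeats and the pairs of genes at 0 in turn were chosen after their values were seen. Members and lists were chosen with earlier results of these data known. Of 78 listed genes 16 were left out because their names stand only in pictures: all desaturases, 7 of 8 light-harvesting genes, 1 of the aureochrome list and 1 of the Rubisco list. Alternatives were other thresholds, filters, pseudocounts and units, and leaving out each library.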

Additional observations from a re-analysis of the deposited data

How the results depend on the processing

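No paired analysis was possible because a single group was described and no result comes from a test. Of 107 alternatives to 19 results 75 left it close (a count within 1.5 times, another value within its spread over libraries), 30 moved it and 2 turned its sign. Other units or limits moved the 2509 genes above 100 TPM to 1093 above 200, 4578 above 50 and 816 in FPKM, the 131 genes at 0 in some libraries to 85 when 50 TPM was asked of another, the 683 genes over 2-fold to 1084 with a mean of at least 1 and 216 with one of at least 50, and the nuclear median to 40.9 in unscaled TPM. Leaving out low genes (means under 1) gave medians of 49.2, 1.97 and 2.45 TPM for nucleus, chloroplast and mitochondrion, 66.9 for chromosome 5, 24.8 for chromosome 30 and a rho of 0.21 for neighbours, and turned that of span and level to -0.10. Leaving out overlapping genes gave 194 genes at 0, shares of 6.21% and 21.7% for the top 10 and 100, 68.5 TPM for chromosome 5 and a rho of 0.23 for neighbours, and turned that of span to -0.044. Leaving out only enclosed genes, chosen after seeing the data, gave 572 low genes and 221 at 0. The rho for neighbours was 0.26 on the same strand and 0.15 on different strands. Ends of 50 genes had a median of 22.3 TPM, and by group medians 3 chloroplast groups kept their rank. Leaving out a library gave nuclear medians of 40.8 to 42.3, mitochondrial medians of 1.60 to 2.01, 375 to 427 genes over 2-fold (fewer libraries can differ) and 5 to 8 chloroplast groups with the same rank. Depth limits genes of low level, among them 1119 nuclear genes at 1 to 10 TPM and most organelle genes (median coverage 2.18 to 4.39 reads per base).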

Other observations

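Some stretches of neighbouring genes differed together in a single WT library. On chromosome 24, 5 of the 10 genes from NO24G01270 to NO24G01360 were more than 1.5-fold lower in WT replicate 2, among them NO24G01270 with 181, 21.3 and 174 TPM, NO24G01310 with 93.8, 0 and 87.2 and NO24G01330 with 74.0, 1.86 and 21.2 in replicates 1, 2 and 3. Genes between them did not follow, as NO24G01300 had 73.6, 74.6 and 74.1 TPM and NO24G01280 had 679, 610 and 592. At the start of chromosome 19, 7 of the 10 genes from NO19G00010 to NO19G00100 were more than 1.5-fold apart in replicate 1. NO19G00060 had 963, 522 and 465 TPM and NO19G00080 had 247, 127 and 139, while NO19G00090 went the other way with 129.98, 424 and 461. On chromosome 11, NO11G00150 and NO11G00160 were high in replicate 1, with 319.7, 150.0 and 187 TPM and with 306, 149.7 and 187. Such stretches were rare. Counted in each library, 18 of 23643 overlapping windows of 10 genes had a median shift of more than 1.5-fold. The median size of the shift was 0.05 on the log2 scale. A window can skip genes, as the window from NO11G00070 to NO11G00190 does.

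A single gene with such a range was NO21G01830 on chromosome 21, which had 5.30, 81.2 and 4.96 TPM in replicates 1, 2 and 3.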
